A study of Ovis aries with 36 samples.

Results

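Keratins are the intermediate filament proteins of epithelial cells, and the genes described here are 10 of them that mark the layers and types of an epithelium: KRT4, KRT5, KRT7, KRT8, KRT13, KRT14, KRT15, KRT17, KRT18 and KRT19. They were taken by gene symbol from the deposited table of read counts. Of the 10 keratins named, 9 had a row among the 35223 genes of the table, KRT7 had none, and 8 passed the filter on low counts that left 22488 genes for testing. The samples were cultured sheep ruminal epithelial cells kept in Grain-VFAs or Hay-VFAs medium, with RNA taken at 6 times and 3 libraries for each medium and time, 36 in all. Grain medium (Grain-VFAs) had a total of 115.78 mM volatile fatty acids, the short-chain acids of rumen fermentation: 71.1 mM acetate, 20.1 mM propionate, 16 mM butyrate, 1.7 mM valerate, 1.1 mM isobutyrate and 5.3 mM isovalerate. Hay medium (Hay-VFAs) had a total of 89.79 mM, made up of 60.8 mM acetate, 14.6 mM propionate, 9.2 mM butyrate, 1.2 mM valerate, 1 mM isobutyrate and 3 mM isovalerate. Both media were at pH 7.2, and before them all cells had spent 2 h without serum in the presence of 100 nM dexamethasone, which aligns cellular clocks. Harvests began at 24 h (T0) and followed at 28 h (T4), 32 h (T8), 36 h (T12), 40 h (T16) and 44 h (T20). The media differ in total acid and in the amount of each acid at once, so the parts of the single acids cannot be told apart. There was no medium without added acids among the groups. The labels do not say how the cells were isolated or whether replicates were separate cultures or animals, so p-values measure only the spread between these libraries.

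Keratin filaments are built from pairs of a type II and a type I chain. In stratified epithelia such as that of the rumen, KRT5 and KRT14 are the pair of the basal, dividing layer, with KRT15 also found there, and KRT4 and KRT13 are the pair of the differentiated layers of non-cornified mucosa. KRT17 is induced in wounded and activated keratinocytes, whereas KRT8, KRT18 and KRT19 (and KRT7) are the keratins of simple, single-layered epithelia.

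Averaged over the 6 time points, KRT14 was higher in Grain than in Hay, and KRT8, KRT13, KRT18 and KRT19 were lower. KRT5 passed as higher and KRT15 and KRT17 as lower by small amounts. None of these 3 calls held when some single harvests were left out. All 8 keratins tested thus passed the threshold (edgeR quasi-likelihood test, Benjamini-Hochberg adjusted p under 0.05). Of all genes tested 81.8% passed it, 37.9% higher and 43.9% lower, so that passing it is not a distinction of the keratins. Sizes ranged widely, with log2 differences of 0.74 for KRT14 and -1.22 for KRT8 at the ends and 0.07 for KRT5 nearest to 0, beside a median of -0.07 over all genes tested. In Grain the basal keratins also fell and rose steeply between harvests, with a low at T8 and a high at T12, and for KRT5, KRT15 and KRT17 the sign of the difference between the media changed with the harvest.

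Total counts per library were between 52.4 and 68.1 M (mega) reads, and libraries of the same group correlated at 0.981 to 0.987 over log CPM (counts per M reads, scaled with edgeR's TMM factors). No pair of libraries was a duplicate. The TMM factors were 1.04 to 1.05 at T8 and 0.859 to 0.869 at T12 in Grain. In Hay they were 1.07 to 1.09 at T8 and 0.982 to 1 at T12. Levels at T12 thus stand higher beside those at T8 than with library totals alone, in both media. As a check of the labelled cell type, EPCAM, an adhesion protein of epithelial cells, averaged 28.3 ± 3.17 CPM in Grain and 23.1 ± 1.56 CPM in Hay (SD, n = 18 each). CDH1, the epithelial cadherin, averaged 44.2 ± 2.5 CPM in Grain and 65.8 ± 3.22 CPM in Hay. TP63, the transcription factor of basal cells, averaged 4.88 ± 0.645 CPM in Grain and 8.32 ± 0.914 CPM in Hay. Genes that define mesenchymal cells were present throughout, VIM (vimentin) at 13167 ± 1127 CPM in Grain and 6375 ± 310.3 CPM in Hay and FN1 (fibronectin) at 75025 ± 12418 CPM in Grain and 59792 ± 5022 CPM in Hay. Mesothelial markers were also present, with MSLN (mesothelin) at 24.1 ± 2.51 CPM in Grain and 27.8 ± 1.59 CPM in Hay. LRRN4, which overlaps another gene, was at 11.9 ± 2.86 CPM in Grain and 24.4 ± 3.2 CPM in Hay. However, others of the same list were low. WT1 averaged 1.32 ± 0.338 CPM in Grain and 2.26 ± 0.329 CPM in Hay, and UPK3B reached at most 0.204 CPM in Grain and 0.249 CPM in Hay. The leukocyte gene PTPRC, which overlaps another gene, reached at most 0.882 CPM in Grain and 1.48 CPM in Hay. Reads of epithelial, mesenchymal and mesothelial marker genes were thus present in every library. In RNA from whole cultures, fewer cells of a type and less RNA per cell cannot be told apart.

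KRT14, the type I chain of the basal pair, was higher in Grain at every harvest. In Grain it was 269.9, 245 and 240.2 CPM at T0, 148, 154 and 171 CPM at T4, 145, 124 and 142 CPM at T8, 277, 302 and 294 CPM at T12, 217, 215 and 249.9 CPM at T16, and 162, 172 and 169 CPM at T20. In Hay it was 116, 111 and 112 CPM at T0, 124, 116 and 122 CPM at T4, 111, 121 and 112 CPM at T8, 126, 129 and 131 CPM at T12, 119.9, 122 and 119 CPM at T16, and 113, 115 and 119.9 CPM at T20. The 3 Grain libraries were above the 3 Hay libraries at each of the 6 harvests, a separation found at single harvests for 67.8% of all genes tested at T0, 64.4% at T4, 64.1% at T8, 68.0% at T12, 65.9% at T16 and 64.5% at T20. The distance for KRT14 was least at T8, where the lowest Grain library had 124 CPM and the highest Hay library 121 CPM. The log2 difference was 1.15 at T0, 0.39 at T4, 0.26 at T8, 1.17 at T12, 0.92 at T16 and 0.54 at T20, with standard errors of 0.0545 to 0.0548, and the highest adjusted p of the 6 was 0.00012 (edgeR quasi-likelihood test). Over all harvests KRT14 averaged 205 ± 57.9 CPM in Grain and 119 ± 6.17 CPM in Hay (SD, n = 18 each), a log2 difference of 0.74 (SE 0.0223, adjusted p = 5.16e-27). The spread over the Grain libraries lay in the time course, while the 18 Hay libraries stayed between 111 and 131 CPM.

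KRT5, the type II partner of KRT14, had the widest time course of the keratins and moved in both media. Its Grain values were 98.7, 89.3 and 79.9 CPM at T0, 36.5, 37 and 45.4 CPM at T4, 28.9, 25.7 and 27.9 CPM at T8, 159.9, 170.0 and 165 CPM at T12, 104, 105 and 113 CPM at T16, and 67.3, 72.8 and 73.3 CPM at T20. In Hay it was 61.6, 62.3 and 60.8 CPM at T0, 57.9, 56.2 and 53.2 CPM at T4, 48.3, 52.5 and 44.9 CPM at T8, 105, 109 and 108 CPM at T12, 83.1, 81.8 and 73.9 CPM at T16, and 60.1, 66.6 and 67.7 CPM at T20. All Grain libraries were above all Hay libraries at T0, T12 and T16, all were below at T4 and T8, and the media overlapped at T20. The log2 difference was 0.54 at T0 (SE 0.067, adjusted p = 7.68e-09), -0.49 at T4 (SE 0.0689, adjusted p = 1.1e-07), -0.82 at T8 (SE 0.0706, adjusted p = 1.18e-12), 0.62 at T12 (SE 0.0653, adjusted p = 1.45e-10) and 0.43 at T16 (SE 0.0662, adjusted p = 5.93e-07) by edgeR. At T20 it was 0.14 (SE 0.0672) and did not pass the threshold (adjusted p = 0.0822).

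The mean difference of KRT5 rested on harvests of opposite sign. It averaged 83.3 ± 47.1 CPM in Grain and 69.6 ± 20 CPM in Hay (SD, n = 18 each), a log2 difference of 0.07 (SE 0.0275, edgeR adjusted p = 0.0214). With DESeq2 size factors in the edgeR fit the difference was 0.04 (adjusted p = 0.224), with library totals alone -0.05 (adjusted p = 0.0693), and without the harvest at T0 it was -0.02 (adjusted p = 0.472), so the mean carries no stable direction. The call was also lost without Grain T0 replicate 1 (adjusted p = 0.059), without Grain T4 replicate 3 (adjusted p = 0.0594) and without Hay T20 replicate 1 (adjusted p = 0.0515).

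KRT15, a type I keratin of basal cells, had the low at T8 and the high at T12 of KRT5 in Grain but not in Hay. There its highest mean was at T8, and the test between harvests did not pass (edgeR adjusted p = 0.229). The Grain libraries had 20.1, 17.5 and 18.7 CPM at T0, 9.87, 12.6 and 12.9 CPM at T4, 10.6, 9.25 and 11 CPM at T8, 23.9, 26.8 and 26.2 CPM at T12, 16.3, 19.5 and 22.2 CPM at T16, and 12.2, 14.6 and 13.3 CPM at T20. The 18 Hay libraries lay between 14.3 and 19.3 CPM, with a median of 17.3 CPM. Grain was wholly below Hay at T4 and T8 and wholly above at T12, and the libraries overlapped at T0, T16 and T20. By edgeR the log2 difference was -0.58 at T4 (SE 0.0957, adjusted p = 2.08e-06), -0.82 at T8 (SE 0.0963, adjusted p = 2.26e-09), 0.54 at T12 (SE 0.0933, adjusted p = 4.82e-06) and 0.24 at T16 (SE 0.0944, adjusted p = 0.0245). It did not pass at T0 (0.05, SE 0.094, adjusted p = 0.659) or T20 (-0.21, SE 0.0961, adjusted p = 0.0567). The call at T16 was lost without Grain T16 replicate 3 (adjusted p = 0.268) or replicate 2 (adjusted p = 0.0591), and without Hay T16 replicate 1 (adjusted p = 0.065) or replicate 2 (adjusted p = 0.0676). The mean difference of -0.13 (SE 0.0387, adjusted p = 0.00242), at 16.5 ± 5.63 CPM in Grain and 17.2 ± 1.36 CPM in Hay, was lost without the harvest at T4 (-0.04, adjusted p = 0.319) and stood at 0.00 without that at T8 (adjusted p = 0.976).

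KRT17, the wound keratin, was again low at T4 and T8 and high at T12 in Grain. Its Grain libraries held 144, 133 and 131 CPM at T0, 90, 92.3 and 99.6 CPM at T4, 87.8, 79 and 86.6 CPM at T8, 149.8, 159.9 and 156 CPM at T12, 118, 116 and 128 CPM at T16, and 93.3, 99.1 and 94.4 CPM at T20. The 18 Hay libraries lay between 104 and 129 CPM, with a median of 119 CPM. Grain was wholly above Hay at T0 and T12, wholly below it at T4, T8 and T20, and overlapped it at T16. By edgeR the log2 difference was 0.17 at T0 (SE 0.0454, adjusted p = 0.00112), -0.43 at T4 (SE 0.0456, adjusted p = 2.56e-10), -0.46 at T8 (SE 0.0458, adjusted p = 5.75e-11), 0.37 at T12 (SE 0.0453, adjusted p = 4.76e-09) and -0.23 at T20 (SE 0.0458, adjusted p = 4.75e-05), and 0.02 at T16 (SE 0.0455, adjusted p = 0.687). With library totals alone the value at T0 was 0.02 (adjusted p = 0.725) and that at T16 was -0.12 (adjusted p = 0.0155). The mean over harvests, -0.09 (SE 0.0186, adjusted p = 3.51e-05), was lost without the harvest at T4 (-0.03, adjusted p = 0.241) or at T8 (-0.02, adjusted p = 0.282).

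**Figure D1:**
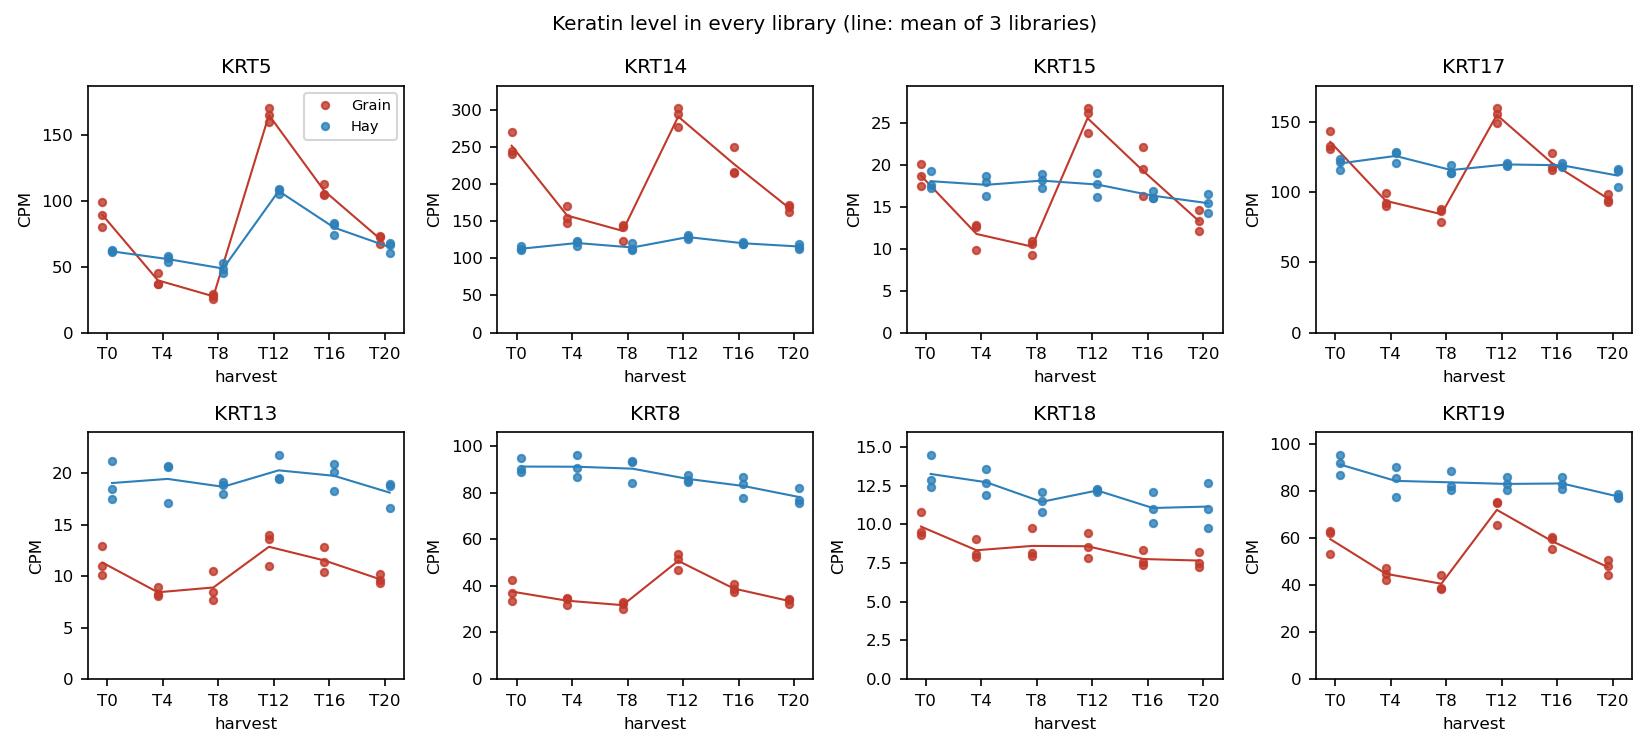
Level of the 8 keratins tested, in CPM on linear axes from 0, in each of the 36 libraries at the 6 harvests, Grain in red and Hay in blue, with lines through the means of 3 libraries. KRT14 in Grain lies above Hay at every harvest, KRT5, KRT15 and KRT17 cross Hay between T0 and T4 and again between T8 and T12, and KRT13, KRT8, KRT18 and KRT19 in Grain lie below Hay throughout.

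KRT13, the type I keratin of differentiated non-cornified mucosa, was lower in Grain at every harvest. Grain libraries had 12.9, 11 and 10.1 CPM at T0, 8.1, 8.31 and 8.91 CPM at T4, 8.51, 7.72 and 10.5 CPM at T8, 13.6, 11 and 14 CPM at T12, 10.4, 12.8 and 11.4 CPM at T16, and 10.2, 9.6 and 9.33 CPM at T20. In Hay the 18 libraries lay between 16.6 and 21.8 CPM, with a median of 19.1 CPM. All 18 Grain libraries, whose highest had 14 CPM, were below all 18 Hay libraries. The log2 difference was -0.89 in the mean (SE 0.0423, edgeR adjusted p = 7.86e-21), at 10.5 ± 1.9 CPM in Grain and 19.2 ± 1.46 CPM in Hay (SD, n = 18 each), and between -0.66 at T12 and -1.21 at T4. Its type II partner KRT4 was at or near 0: it had no count in the 18 Grain libraries and 3 counts in the 18 Hay libraries, all in 1 of them. A floor of 3 counts over the 18 libraries of a medium corresponds to 0.00288 CPM in Grain and 0.0026 CPM in Hay, so no difference in KRT4 was detectable at this depth; the floor covers counting error only.

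KRT8, the type II chain of simple epithelia, had the largest mean difference of the 8 keratins tested. Its levels in Grain were 36.8, 42.5 and 33.4 CPM at T0, 34.5, 34.6 and 31.8 CPM at T4, 32.2, 30.1 and 32.9 CPM at T8, 46.9, 53.8 and 51.5 CPM at T12, 37.5, 38.5 and 40.6 CPM at T16, and 33.9, 34.5 and 32.1 CPM at T20. In Hay it was 90, 94.7 and 88.9 CPM at T0, 96.2, 86.8 and 90.4 CPM at T4, 93.6, 93.2 and 84.1 CPM at T8, 85.3, 87.7 and 84.7 CPM at T12, 83.8, 86.9 and 77.9 CPM at T16, and 76.9, 75.6 and 81.9 CPM at T20. All 18 Grain libraries were below all 18 Hay libraries, with 53.8 CPM the highest in Grain and 75.6 CPM the lowest in Hay. The log2 difference was -1.28 at T0, -1.44 at T4, -1.51 at T8, -0.76 at T12, -1.09 at T16 and -1.22 at T20, with standard errors of 0.06 to 0.0616 and adjusted p of at most 1.05e-13 (edgeR). KRT8 averaged 37.7 ± 6.88 CPM in Grain and 86.6 ± 6.02 CPM in Hay (SD, n = 18 each), a log2 difference of -1.22 (SE 0.0249, adjusted p = 2.16e-32). Against a difference of at least 2-fold, tested with edgeR's glmTreat, KRT8 was the only one of these 8 called. This is 1 of 8 beside 3119 of the 22488 genes tested, a similar share, so passing it is not a distinction of the keratins.

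KRT18, the type I partner of KRT8, was lower in Grain by a smaller and steadier amount. Levels in Grain were 10.8, 9.5 and 9.29 CPM at T0, 7.89, 9.05 and 8.06 CPM at T4, 8.13, 7.95 and 9.76 CPM at T8, 7.8, 8.56 and 9.42 CPM at T12, 7.57, 8.36 and 7.37 CPM at T16, and 7.26, 7.52 and 8.22 CPM at T20. In Hay it was 12.9, 14.5 and 12.4 CPM at T0, 13.6, 11.9 and 12.7 CPM at T4, 12.1, 10.8 and 11.5 CPM at T8, 12.3, 12.1 and 12.2 CPM at T12, 12.1, 11 and 10.1 CPM at T16, and 9.78, 12.7 and 11 CPM at T20. The 3 Grain libraries were below the 3 Hay libraries at each harvest, although the media overlapped when harvests were pooled. The mean log2 difference was -0.50 (SE 0.0398, edgeR adjusted p = 3.78e-14), at 8.47 ± 0.968 CPM in Grain and 12 ± 1.16 CPM in Hay (SD, n = 18 each), and the single harvests lay between -0.42 at T8 and -0.61 at T4.

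KRT19, a type I keratin of simple epithelia that also occurs in basal cells, combined both patterns, as KRT8 did. The 18 Grain libraries had 62.9, 62.3 and 53.3 CPM at T0, 42.2, 44.8 and 47.3 CPM at T4, 44.2, 38.9 and 38.5 CPM at T8, 65.7, 75.1 and 75 CPM at T12, 55.5, 59.7 and 60.5 CPM at T16, and 44.1, 50.6 and 48.1 CPM at T20. The 18 Hay libraries lay between 77 and 95.3 CPM, with a median of 82.9 CPM. Every Grain library was below every Hay library, as for KRT8 and KRT13. The Grain course of KRT19 had the low at T8 and the high at T12 of the basal keratins. KRT8 in Grain had its low and high at the same harvests, with means of 31.7 CPM at T8 and 50.7 CPM at T12. The log2 difference was -1.04 at T8 (SE 0.0635, edgeR adjusted p = 8.5e-17), -0.21 at T12 (SE 0.0622, adjusted p = 0.00414) and -0.66 in the mean (SE 0.0257, adjusted p = 1.34e-23), at 53.8 ± 11.4 CPM in Grain and 83.8 ± 5.26 CPM in Hay (SD, n = 18 each). At T12 the call was lost without Grain T12 replicate 1, where the difference was -0.14 (adjusted p = 0.0816).

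**Figure D2:**
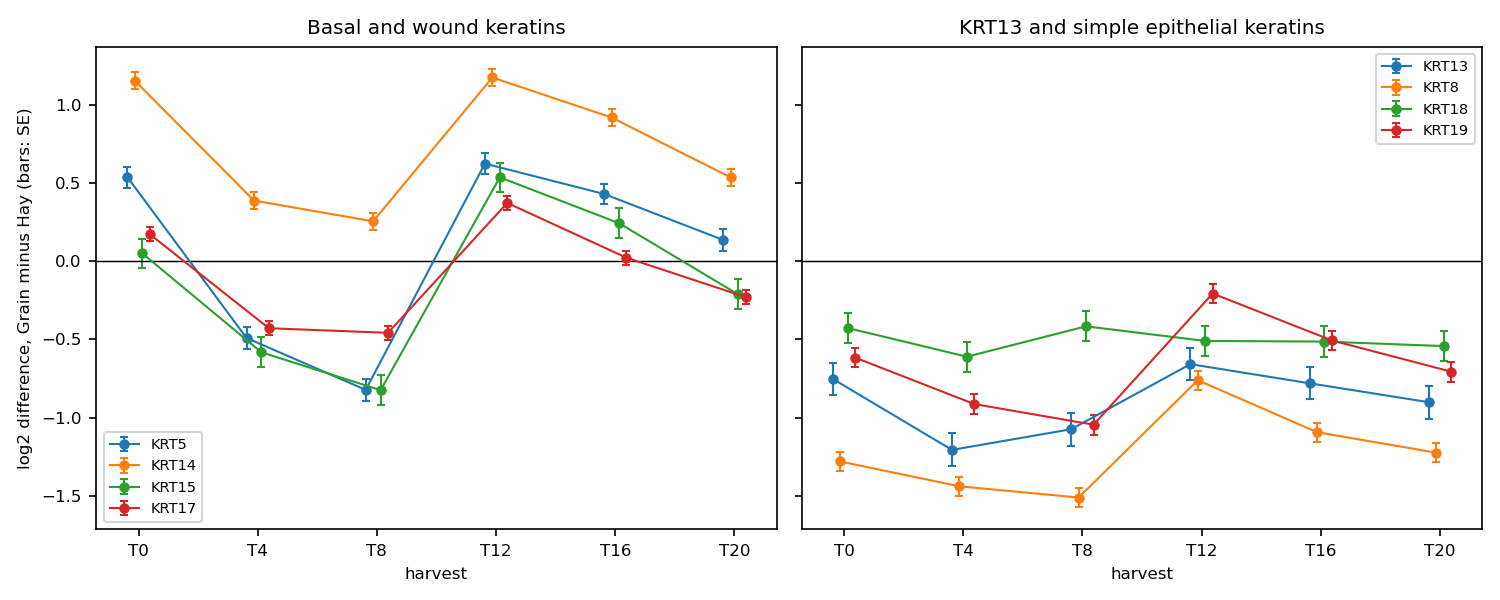
Log2 difference of Grain minus Hay for each keratin at the 6 harvests, with bars for the standard error derived from the F statistic of the edgeR test. KRT5, KRT15 and KRT17 lie on both sides of 0, KRT14 lies between 0.26 and 1.17, and KRT13, KRT8, KRT18 and KRT19 lie below 0 at each harvest.

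At single harvests the numbers of keratins called were 7 at T0, 8 at T4, 8 at T8, 8 at T12, 7 at T16 and 6 at T20. The share of all genes called was 62.8% at T0, 57.8% at T4, 56.8% at T8, 64.3% at T12, 62.7% at T16 and 58.9% at T20. KRT8, KRT13 and KRT19 had all Grain libraries on the same side of all Hay libraries over the 6 harvests together, 3 of 8 keratins, each with Grain below, beside 27.2% of all genes tested in either direction and 11.9% with Grain below. Whether the difference between the media depended on the harvest was tested directly. It did for 7 of the 8 keratins, against 32.6% of all genes tested (edgeR F test of 5 contrasts). The adjusted p was 3.06e-15 for KRT5, 2.03e-13 for KRT17, 2.55e-13 for KRT14, 7.23e-10 for KRT15, 1.35e-08 for KRT19, 5.51e-08 for KRT8 and 0.019 for KRT13. KRT18 did not pass (adjusted p = 0.819). The call for KRT13 was lost with library totals alone (adjusted p = 0.122), without the harvest at T4 (0.148) or at T12 (0.0676), and without Grain T4 replicate 1 (0.0508), Hay T4 replicate 1 (0.0545) or Hay T4 replicate 3 (0.0524).

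Within Grain all 8 keratins differed between harvests, beside 51.5% of all genes tested, with adjusted p between 4.93e-26 for KRT5 and 0.0232 for KRT18 (edgeR F test). By p-value KRT5 stood at rank 12, KRT14 at rank 178 and KRT17 at rank 209 of the 22488 genes. The highest group mean over the lowest was 6 for KRT5, 2.5 for KRT15, 2.12 for KRT14, 1.84 for KRT17, 1.77 for KRT19, 1.6 for KRT8, 1.52 for KRT13 and 1.29 for KRT18. The highest mean was at T12 for each of these but KRT18, which was highest at T0, and the lowest was at T8 except for KRT13 (T4) and KRT18 (T20). The call for KRT18 was lost without the harvest at T0 (adjusted p = 0.418) or T20 (0.0516), and without Grain T0 replicate 1 (0.154) or Grain T20 replicate 2 (0.0592).

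Within Hay, KRT5 was the keratin with a clear course. Its group means were 61.6 CPM at T0, 55.8 CPM at T4, 48.6 CPM at T8, 107 CPM at T12, 79.6 CPM at T16 and 64.8 CPM at T20, so its low and high fell at the same harvests as in Grain, with a highest mean over the lowest of 2.2 (edgeR adjusted p = 6.78e-16). The other 7 had ratios between 1.12 and 1.2. In Hay 4 of the 8 keratins differed between harvests, beside 35.2% of all genes tested: KRT5, KRT8 (adjusted p = 0.00841), KRT17 (0.043) and KRT14 (0.0498). KRT8 declined in group means, with 91.2 CPM at T0, 91.2 CPM at T4, 90.3 CPM at T8, 85.9 CPM at T12, 82.9 CPM at T16 and 78.1 CPM at T20, and without the harvest at T20 its adjusted p was 0.183. The calls of KRT14 and KRT17 in Hay lay close to the threshold: the call of KRT14 was lost on leaving out any of 22 of the 36 libraries, with adjusted p of up to 0.175 (without Hay T12 replicate 3). The call of KRT17 was lost on leaving out any of 8, with adjusted p of up to 0.154 (without Hay T20 replicate 1). For KRT17 the other 7 were Grain T12 replicate 3, Hay T0 replicate 2, Hay T4 replicates 1 and 3, Hay T8 replicates 1 and 3, and Hay T12 replicate 2.

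The last harvest did not return to the level of the first in Grain. Log2 differences of T20 minus T0 in Grain were -0.58 for KRT14 (SE 0.0541, edgeR adjusted p = 1.75e-09), -0.51 for KRT17 (SE 0.0458, 9.9e-10), -0.49 for KRT15 (SE 0.0959, 0.000706), -0.36 for KRT18 (SE 0.0993, 0.0153), -0.33 for KRT5 (SE 0.0668, 0.00114) and -0.32 for KRT19 (SE 0.064, 0.000908). These 6 of 8 fell, where 9.04% of all genes tested differed, 4.00% by falling. KRT13 (-0.22, adjusted p = 0.223) and KRT8 (-0.17, adjusted p = 0.0955) did not pass, and the call of KRT18 was lost without Grain T0 replicate 1 (0.114), Grain T20 replicate 1 (0.0788) or Grain T20 replicate 2 (0.0622). In Hay, KRT8 (-0.22, SE 0.0587, adjusted p = 0.0225) and KRT19 (-0.23, SE 0.0617, adjusted p = 0.0239) passed, 2 of 8 keratins beside 3.64% of all genes, 0.814% by falling. Both calls in Hay were lost without Hay T0 replicate 1, Hay T0 replicate 2, Hay T20 replicate 1 or Hay T20 replicate 2, with the adjusted p for KRT8 up to 0.133 and for KRT19 up to 0.146, and that of KRT19 also without Hay T20 replicate 3 (0.0581).

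A cosine of fixed 24 h period, fitted to 6 harvests that span less than a full period, was called in Grain for 5 of 8 keratins, beside 31.8% of all genes tested. KRT5 had the largest amplitude, 0.85 on the log2 scale (SE 0.178) with a peak at 16.2 h after T0 (edgeR adjusted p = 0.000842). KRT15 had 0.38 (SE 0.1, peak 15.7 h, adjusted p = 0.0087), KRT19 had 0.21 (SE 0.0647, peak 15.7 h, 0.0255), KRT13 had 0.20 (SE 0.0584, peak 15.7 h, 0.0222) and KRT8 had 0.19 (SE 0.0495, peak 13.6 h, 0.00867). KRT14 (0.26, adjusted p = 0.0583), KRT17 (0.18, 0.124) and KRT18 (0.10, 0.269) did not pass. The fitted peaks lie after T12, the harvest with the highest mean, and the measured course is a steep climb between T8 and T12 followed by a slower decline. In Hay none of the 8 passed in the fit of both media, beside 20.7% of all genes tested by edgeR, and KRT5 was at an amplitude of 0.40 (SE 0.157, unadjusted p = 0.0467, adjusted p = 0.151). It was the only keratin with an unadjusted p under 0.05. The difference of the 24 h component between the media was called for KRT8 (adjusted p = 0.0293), 1 of 8 beside 11.3% of all genes, and this was lost without Grain T4 replicate 3 (0.0524), Hay T16 replicate 3 (0.0513) or Hay T4 replicate 1 (0.0509). In Grain the call of KRT13 was lost without Grain T4 replicate 1 (0.0709), Grain T4 replicate 2 (0.0647) or Grain T16 replicate 2 (0.0615), and that of KRT19 without Grain T4 replicate 1 (0.07) or Grain T4 replicate 2 (0.0557). These calls also depended on the form of the model. When each medium was fitted alone, KRT5 was the only keratin called in Grain (adjusted p = 0.018), and KRT5 (0.00194) and KRT8 (0.009) were called in Hay. With library totals alone 4 were called in Grain and 2 in Hay. The difference between the media was called for 7 keratins with a linear trend added, for 3 with a 12 h period, KRT8 not among them (adjusted p = 0.141), and for 2 with library totals alone. These counts show only how the calls moved with the model and are not read as a distinction of the keratins. Numbers of all genes called with the trend and with the 12 h period are given below, with the processing.

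The partners of a filament pair differed in the size of their changes. The ratio of KRT5 to KRT14 counts, which is not adjusted for transcript length and so is read only between groups, averaged 0.378 ± 0.13 in Grain and 0.58 ± 0.14 in Hay (SD, n = 18 each). In Grain its group means were 0.355 at T0, 0.251 at T4, 0.201 at T8, 0.568 at T12, 0.472 at T16 and 0.424 at T20. In Hay they were 0.545 at T0, 0.463 at T4, 0.423 at T8, 0.831 at T12, 0.661 at T16 and 0.559 at T20. The ratio was thus lower in Grain at each harvest, with SDs of at most 0.0377 within a group, and passed through the same low at T8 and high at T12 in both media. The ratio of KRT8 to KRT18 averaged 4.48 ± 0.87 in Grain and 7.26 ± 0.583 in Hay. It was nearest between the media at T12, at 5.92 ± 0.414 in Grain and 7.02 ± 0.181 in Hay (SD, n = 3 each), and farthest apart at T8, at 3.71 ± 0.302 in Grain and 7.89 ± 0.659 in Hay. The ratio of KRT4 to KRT13 was 0 in all libraries but 1 of Hay.

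**Figure D3:**
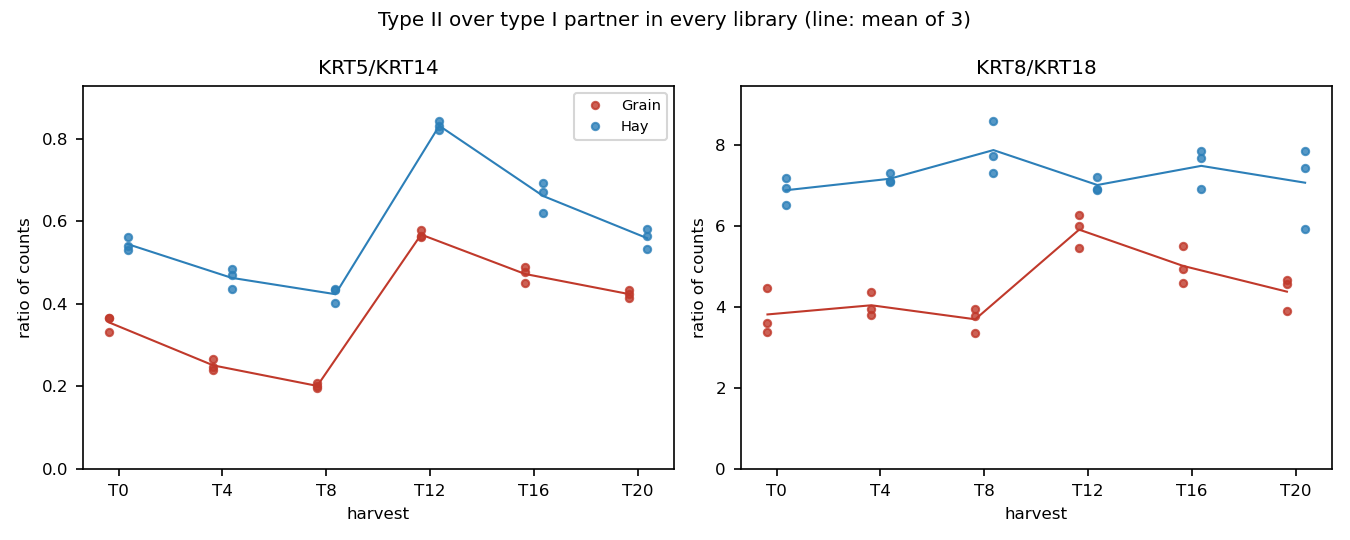
Ratio of counts of the type II chain to its type I partner in each library at the 6 harvests, on linear axes from 0, Grain in red and Hay in blue, with lines through the means of 3 libraries. KRT5 over KRT14 is lower in Grain at each harvest and peaks at T12 in both media, and KRT8 over KRT18 is lower in Grain, with its nearest approach to Hay at T12.

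Among themselves, the keratins of the Grain libraries formed a single block from which KRT18 stood apart. Over the 18 Grain libraries Pearson's r of log2 CPM was 0.99 between KRT14 and KRT17, 0.97 between KRT14 and KRT15, 0.93 between KRT5 and KRT14, and 0.94 between KRT5 and KRT19, whereas KRT18 had r of 0.03 with KRT5 and at most 0.32, with KRT17. Over the 18 Hay libraries the largest values among the 28 pairs were 0.74 between KRT5 and KRT14 and 0.72 between KRT8 and KRT19, and KRT5 with KRT8 had -0.26. These are descriptions: the libraries share their medium, harvest, depth and scaling. With the mean of each of the 12 groups removed, which leaves the deviations between replicates, r over the 36 libraries was 0.89 between KRT14 and KRT17, 0.77 between KRT5 and KRT14, and 0.74 between KRT5 and KRT17. KRT8 and KRT18, the simple epithelial pair, had 0.26 on the same measure.

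**Figure D4:**
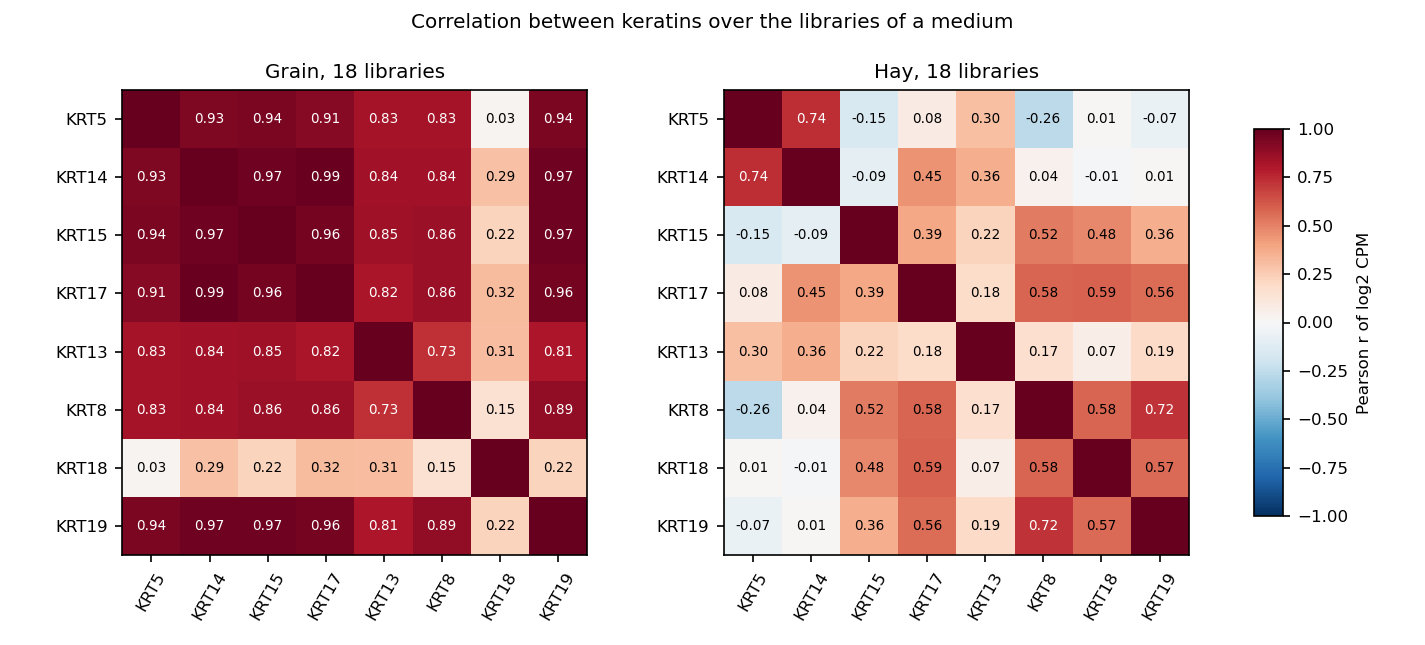
Pearson's r of log2 CPM for each pair of keratins, over the 18 Grain libraries on the left and the 18 Hay libraries on the right, on a colour scale between -1 and 1 with the value in each cell. In Grain all keratins but KRT18 correlate at 0.73 to 0.99, and in Hay the highest are KRT5 with KRT14 at 0.74 and KRT8 with KRT19 at 0.72.

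The genes most like each keratin were sought among 10292 genes of at least 5 CPM, by r over the 36 libraries after the mean of each medium was removed. For KRT14 these were KRT17 (0.97), KRT6A, a type II wound keratin (0.96), and LHFPL6 (0.94). For KRT5 they included ADAM12, a metalloprotease, and THBS1, thrombospondin, each at 0.98. KRT15 was nearest to KRT17 (0.94), KRT17 to KRT14 (0.97), and KRT19 to KRT17 (0.94), AREG, an EGF receptor ligand (0.93), and KRT15 (0.93). KRT8 was nearest to KRT19 and UHMK1 (0.87 each) and DDR1, a collagen receptor (0.86), and KRT13 to UNG, a DNA repair enzyme (0.86). KRT18 had no close match: its nearest were NKD1 and SP4 at 0.59 and MSLN, mesothelin, at 0.57. ADAM12, LHFPL6, THBS1 and UHMK1 overlap another annotated gene, and because the library kit does not keep strand their reads cannot be told apart from those of the partner.

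By position in the RefSeq annotation, KRT8 and KRT18 are neighbours, as are KRT13, KRT15 and KRT19 in a row. KRT8 and KRT18 shared the direction of their difference but not its size or its dependence on the harvest, and among KRT13, KRT15 and KRT19, KRT15 was higher in Grain at T12 while the others were lower. None of the 8 keratins tested overlaps another annotated gene. RefSeq lists KRT14 as a synonym of KRT17, and an unnamed locus lies between them. Keratins of a type are similar in sequence, and how the authors' counting treated reads that match several genes is not given in the sources used here, so the split of reads between KRT14 and KRT17, and between KRT5 and the adjacent KRT6A, is uncertain.

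Outside the 10, KRT80 and KRT23 were lower in Grain by more than KRT8, while KRT6A changed sign with the harvest. Of 45 others listed, 28 had a row, 11 passed the filter, and all 11 were called lower over the mean of 6 harvests, beside 43.9% of all genes tested, with a median log2 difference of -1.91 beside -0.07 over all genes tested. KRT80, a type II keratin of differentiating cells, averaged 5.49 ± 1.04 CPM in Grain and 18.5 ± 0.918 CPM in Hay (SD, n = 18 each; log2 difference -1.77, SE 0.0378, edgeR adjusted p = 8.53e-32). KRT23 averaged 1.32 ± 0.299 CPM in Grain and 4.93 ± 0.6 CPM in Hay (-1.91, SE 0.0599, adjusted p = 1.65e-26). KRT6A had 23.5 ± 10.5 CPM in Grain and 23.2 ± 2.89 CPM in Hay, and like KRT17 it changed sign: its log2 difference was 0.28 at T0, -0.67 at T4, -0.73 at T8, 0.61 at T12, 0.10 at T16 and -0.24 at T20, all past the threshold but that at T16 (adjusted p = 0.257; dependence on harvest, adjusted p = 6.79e-13). The other 8 averaged under 3 CPM in either medium, and KRT24 and KRT28 among them overlap other genes. KRT12, KRT28 and KRT78 averaged 0.0251, 0.00802 and 0.0227 CPM in Grain and passed the filter through their counts in Hay. The count of 11 and its median include them, so neither is read as a result on the other keratins.

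Of the intermediate filament proteins other than keratins, nuclear lamins among them, 15 of 16 were tested. Of these 6 rose and 7 fell, with a median of -0.06, near the shares of all genes tested (37.9% higher, 43.9% lower). VIM, the filament protein of mesenchymal cells, rose by 1.04 on the log2 scale (SE 0.0142, edgeR adjusted p = 5.85e-38). DES, that of muscle, averaged 74.1 ± 17.1 CPM in Grain and 8.71 ± 2.92 CPM in Hay (3.12, SE 0.0348, adjusted p = 1.67e-40). LMNA, nuclear lamin A, rose by 0.76 (SE 0.0219, adjusted p = 1.24e-27), and NEFL, a neurofilament, fell by 3.13 (SE 0.0555, adjusted p = 2.36e-34).

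Keratin filaments are fastened to cell contacts, and 2 lists of contact genes are described. Of 14 desmosome genes 13 fell and 1 rose in the mean (median -0.41). DSG4, included in the 13 and in the median, reached at most 0.108 CPM in Grain and passed the filter through Hay. Its fall is not read as a result. Over all genes tested 43.9% were lower and 37.9% higher. DSC2, a desmosomal cadherin, averaged 41.7 ± 4.12 CPM in Grain and 94.5 ± 5.27 CPM in Hay (-1.18, SE 0.0204, edgeR adjusted p = 1.01e-34), and DSG2, its partner cadherin, fell by 0.91 (SE 0.0258, adjusted p = 6.27e-28). DSP, desmoplakin, which binds keratin, fell by 0.40 (SE 0.0275, adjusted p = 6.67e-16), and PKP4 rose by 0.69 (SE 0.0128, adjusted p = 9.55e-34). Of 12 hemidesmosome and plakin genes 6 rose and 3 fell (median 0.31), fewer called in all than the 81.8% of all genes tested. COL17A1, a hemidesmosome collagen, rose by 0.77 (SE 0.0232, adjusted p = 4.11e-27) and CD151, a tetraspanin of the hemidesmosome, by 0.72 (SE 0.0233, adjusted p = 3.9e-26), while DST, which links keratin to the hemidesmosome, fell by 0.63 (SE 0.0241, adjusted p = 1.21e-23). DSP, PKP4 and DST overlap other annotated genes.

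Of 28 genes that regulate or bind keratins, 9 rose and 14 fell, with a median of -0.10, again near the 37.9% higher and 43.9% lower of all genes tested. TCHP, trichoplein, a keratin-binding protein, rose by 0.71 (SE 0.0201, edgeR adjusted p = 6.08e-28) and KLF4, a factor of differentiating epithelium, by 0.74 (SE 0.0313, adjusted p = 2.36e-22), whereas KLF5, a factor of dividing epithelium, fell by 0.47 (SE 0.0179, adjusted p = 9.82e-24). SFN, the epithelial 14-3-3 protein that binds keratins, fell by 0.95 (SE 0.0448, adjusted p = 7.19e-21). TP63, which activates KRT5 and KRT14, fell by 0.77 (SE 0.0514, adjusted p = 2.5e-16). The edgeR test of its dependence on the harvest did not pass (adjusted p = 0.343). The part of TP63 in the keratin differences was not tested. TP63 contains an annotated tRNA gene. Of 21 tested genes of the suprabasal and cornified layers 17 fell and 3 rose (median -0.94), beside 43.9% lower and 37.9% higher of all genes. Among the 21, FLG, KLK5 and ALOXE3 reached at most 0.137, 0.142 and 0.155 CPM in Grain and passed the filter through Hay. The count of 17 and the median include them, and their lower levels in Grain are not read as a result. CRNN, cornulin, fell by 1.49 (SE 0.0791, adjusted p = 3.01e-19) and SPINK5, a protease inhibitor, by 0.41 (SE 0.0456, adjusted p = 3.47e-10), while LORICRIN rose by 0.28 (SE 0.0306, adjusted p = 1.94e-10) and SBSN, suprabasin, by 0.32 (SE 0.0456, adjusted p = 6.19e-08).

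The course of the basal keratins in Grain was shared by the summed levels of lists that hold no keratin. The summed level of 13 basal epithelial markers in Grain was 1243 CPM at T0, 970.4 CPM at T4, 852 CPM at T8, 1655 CPM at T12, 1349 CPM at T16 and 1146 CPM at T20, and in Hay it was 949, 919, 863, 1063, 973 and 919 CPM at the same harvests. Of these 13 markers 5 rose and 7 fell in the mean, beside 37.9% higher and 43.9% lower over all genes tested. The sum of 26 fibroblast markers, of which 17 rose and 9 fell, ranged over 83656 to 144821 CPM in Grain libraries and 73365 to 101568 CPM in Hay libraries, with group means lowest at T8 and highest at T12 in both media. It was 84573 CPM at T8 and 142329 CPM at T12 in Grain, and 74321 CPM at T8 and 98928 CPM at T12 in Hay. The sum of 12 tested mesothelial markers likewise had 848 CPM at T8 and 1658 CPM at T12 in Grain, and 856 CPM at T8 and 1224 CPM at T12 in Hay. That of 10 smooth muscle markers was 497 CPM at T8 and 1119.5 CPM at T12 in Grain, and 285 CPM at T8 and 1129.8 CPM at T12 in Hay. Abundant genes weigh most in such sums. The mesothelial sum in Grain averaged 1220.3 CPM, of which CCDC80 held 704 ± 237 CPM and PDPN 459 ± 37.5 CPM (SD, n = 18). Of the fibroblast sum in Grain, on average 111229 CPM, FN1 held 75025 CPM. The sums thus do not show that each listed marker had this course.

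The sum of 22 pan-epithelial markers did not have this course. Over the libraries it ranged between 293 and 344 CPM in Grain. In Hay it had a mean of 361 ± 21.4 CPM (SD, n = 18). The lowest Hay library had 328 CPM, so the libraries of the media overlapped. Of its genes 7 rose and 9 fell (median log2 difference 0.02), beside 37.9% higher and 43.9% lower over all genes tested. In Grain the sum was 305 ± 13.9 CPM at T8 and 326 ± 16.3 CPM at T12, and in Hay 370.1 ± 20.4 CPM at T8 and 331 ± 3.42 CPM at T12 (SD, n = 3 each). CDH1, which overlaps another gene, fell by 0.57 on the log2 scale (SE 0.0218, edgeR adjusted p = 7.27e-24), and EPCAM rose by 0.29 (SE 0.0318, adjusted p = 2.25e-10). The immune markers summed to between 5.82 and 7.96 CPM in Grain and between 8.62 and 11.2 CPM in Hay, and the endothelial markers to between 79.4 and 134 CPM in Grain and between 49.3 and 77.2 CPM in Hay. The part of the marker levels in the keratin differences was not tested.

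**Figure D5:**
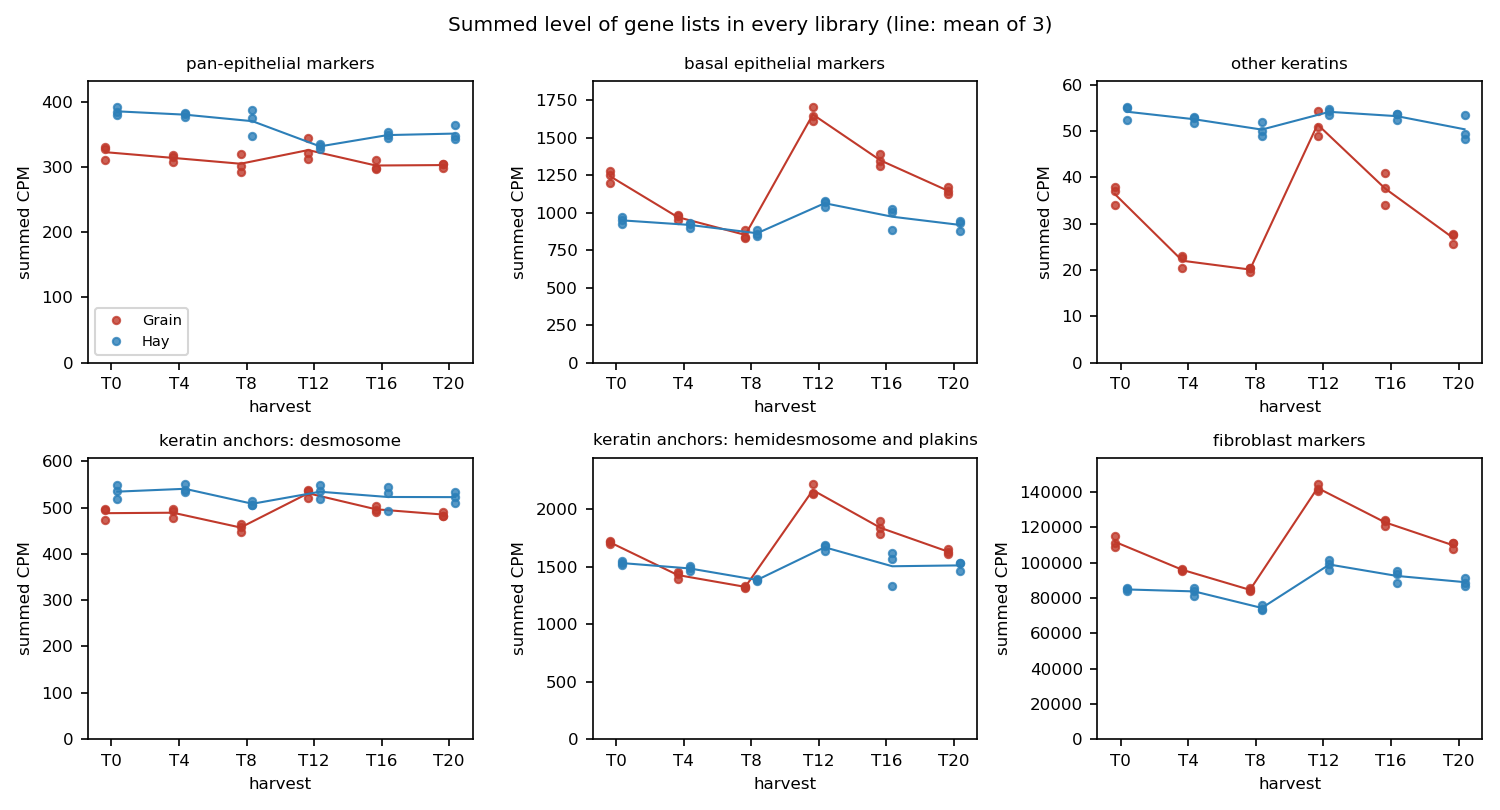
Summed CPM of 6 gene lists in each library at the 6 harvests, on linear axes from 0, Grain in red and Hay in blue, with lines through the means of 3 libraries. Basal epithelial, hemidesmosome and fibroblast lists in Grain are lowest at T8 and highest at T12, the pan-epithelial sum stays between 293 and 344 CPM in Grain, and the other keratins in Grain approach Hay at T12.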

How the data were processed

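RNA of 36 libraries was extracted with TRNzol, and libraries (TruSeq v2 chemistry) were sequenced from both ends, per the labels' protocols. That chemistry keeps no strand. The submitters' processing notes name the tools StringTie 2.1.5, SAMtools 1.20 and HISAT2 2.2.1. The genome build, the counting tool and its treatment of reads with several matches are not stated there or in the labels. The deposited table holds whole-number counts for 35223 genes made by the authors without normalisation, and 2778 of the genes carry no symbol. RefSeq genes of assembly ARS-UI_Ramb_v3.0 were used only for names and neighbours.

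Groups came from the labels. Genes were filtered with filterByExpr (minimum count 10, minimum total count 15), scaled by TMM and tested with edgeR 4.0.16 quasi-likelihood tests (limma 3.58.1, R 4.3.3) on a mean for each of 12 groups, with 24 residual degrees of freedom, or on a 24 h cosine and sine for each medium. Tests were two-sided, with Benjamini-Hochberg adjustment over 22488 genes and a threshold of 0.05. The standard error (SE) of a log2 difference is its absolute value divided by the square root of the F statistic. Those of amplitudes were derived from such values for the cosine and sine. Total counts of 52.4 to 68.1 M reads limit the precision for low genes such as KRT4. Alternatives were DESeq2 1.42.0, its size factors, library totals, no filter, a block for the replicate number, single fits by medium or harvest, a linear trend, a 2-fold minimum, and leaving out libraries or harvests. The procedure was also tested on simulated counts. The keratins and the gene lists were chosen with earlier results of these data known. In each other list up to 4 genes of at least 5 CPM with the smallest adjusted p for the mean were named, besides other keratins, defining markers and the 3 genes most like each keratin. Some genes that this rule names are not reported here.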

Additional observations from a re-analysis of the deposited data

Results flagged for a closer look

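For 7 keratins the difference between Grain and Hay was not the same at every harvest (edgeR F test of the dependence on time, Benjamini-Hochberg adjusted). KRT5 had an adjusted p of 3.06e-15, with log2 differences between -0.82 at T8 and 0.62 at T12. KRT14 had 2.55e-13, with 0.26 at T8 and 1.17 at T12, and KRT17 had 2.03e-13, with -0.46 at T8 and 0.37 at T12. KRT15 had 7.23e-10, with -0.82 at T8 and 0.54 at T12. Among the keratins that were lower in Grain at each harvest, KRT19 had 1.35e-08, with -1.04 at T8 and -0.21 at T12, KRT8 had 5.51e-08, with -1.51 at T8 and -0.76 at T12, and KRT13 had 0.019, with -1.21 at T4 and -0.66 at T12. For KRT8 the 24 h component also differed between the media (adjusted p = 0.0293), with an amplitude of 0.19 (SE 0.0495) in Grain and 0.10 (SE 0.0495) in Hay on the log2 scale and a fitted peak at 13.6 h in Grain. The component in Hay did not itself pass (adjusted p = 0.322), so no peak is read there, and the difference did not pass without Grain T4 replicate 3 (0.0524), Hay T16 replicate 3 (0.0513) or Hay T4 replicate 1 (0.0509).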

How the results depend on the processing

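The higher level of KRT14 and the lower levels of KRT8, KRT13, KRT18 and KRT19 in the mean kept their direction under every alternative run, and lost the threshold only against a 2-fold minimum, for all of these but KRT8. With library totals alone the median of all genes moved to -0.19, against -0.07 with TMM, and KRT5 in the mean stood at -0.05, KRT15 at T0 at -0.10, KRT17 at T16 at -0.12 and KRT14 at T20 minus T0 in Hay at -0.00. The mean difference of KRT5 was -0.02 without T0, -0.05 without T12 and -0.01 without T16, and that of KRT15 was 0.00 without T8. With single libraries left out KRT15 at T0 ranged over -0.00 to 0.10, KRT17 at T16 over -0.03 to 0.05 and KRT13 at T20 minus T0 in Hay over -0.13 to 0.01. None of these turned values but KRT17 at T16 with library totals passed the threshold, and their causes were not tested.

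Against a 2-fold minimum 3119 genes and 1 keratin were called in the mean, against 18388 and 8. Keratins with any difference between harvests in Hay numbered 2 with no filter, 2 without T12 (5089 genes, against 7927) and 1 without T20. Keratins with a 24 h component numbered 2 in Hay with library totals, 1 in Grain and 2 in Hay with each medium fitted alone. Keratins with a different 24 h component numbered 2 with library totals, 7 with a linear trend (4343 genes, against 2550) and 3 with a 12 h period, chosen after seeing the data, as was leaving out harvests in the tests over time. With the 12 h period 3989 genes were called in Grain, 10 in Hay and 328 for the difference. Over single libraries left out, T20 minus T0 called 1230 to 2178 genes in Grain, and 416 to 923 genes and 0 to 2 keratins in Hay. Keratins with any difference between harvests in Hay then ranged over 2 to 5, with a 24 h component in Grain over 3 to 7, and with a different component over 0 to 3. All other counts stayed within 1.5 times their values.

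With the replicate number as a block, 18362 genes and 8 keratins were called in the mean, and no keratin call changed. None of the 18 same-numbered pairs correlated above 0.1 in their deviations (-0.04 to 0.03), and 16 of 36 libraries correlated best with their own number. These deviations are taken over all genes tested, low ones among them, so they cannot decide whether the numbers pair the samples. With 3 libraries a group, depth limits KRT4 and the rarer keratins such as KRT28, and differences of the size of those of KRT5 in the mean, of KRT13 over time and of KRT14 and KRT17 in Hay are at the edge of what was detected.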
